A study of Mus musculus with 12 samples.

Results

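The 10 genes described here encode cytosolic sulfotransferases of mouse liver that act on bile acids, steroids, phenols, amines and thyroid hormone: Sult1a1, Sult1b1, Sult1c2, Sult1d1, Sult2a1, Sult2a2, Sult2a7, Sult2a8, Sult3a1 and Sult5a1. They were taken by gene name from a deposited table of 25676 genes, in which each of the 10 names has 1 row. All 10 reached a mean of 0.5 TPM (transcripts per 1000000 transcripts, a level corrected for transcript length) over the 12 libraries and were tested. Sult2a7 and Sult3a1 reached it only through the WT females. The data are RNA sequencing of whole liver from C57BL/6 mice of 3 to 4 months, in 4 groups of 3 animals: WT males, WT females, KO males and KO females. The KO genotype is labelled Foxa3-Cre YAP1 KO, a deletion of Yap1, a transcriptional coactivator of the Hippo pathway, by a Cre recombinase under control of the Foxa3 gene, which is active in the endoderm that gives rise to liver. Hepatocytes and bile duct cells both descend from it, so the deletion is not one of hepatocytes alone. The labels give no allele for the WT mice, so whether they carry floxed Yap1 or Cre is not given in the sources used here.

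Cytosolic sulfotransferases move a sulfonate group from the donor PAPS (phosphoadenosine phosphosulfate) to a hydroxyl or amino group of a small molecule, which makes it more soluble in water and easier to excrete. Enzymes of the Sult2a family sulfate hydroxysteroids and bile acids, which lowers the toxicity of bile acids in cholestasis, while Sult1 enzymes act mainly on phenols, catechols and iodothyronines. In mouse liver several of these genes are expressed at a higher level in females than in males, a difference set in large part by the sex-specific pattern of growth hormone release and its signalling through STAT5b.

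Yap1 was at 22.99 to 34.92 TPM in the 6 WT livers and at 0.994 to 3.106 TPM in the 6 KO livers, and the sum of 4 Y-linked genes was 52.49 to 101.3 TPM in the 6 males and at most 0.1221 TPM in the 6 females. TPM values are shares of a library, and the composition of the libraries differed: the median gene was 0.35 higher in KO than in WT on the log2(TPM + 1) scale used for all differences below, and -0.04 after the libraries were rescaled by median-of-ratios factors. Differences are therefore given for TPM as deposited, with the rescaled value where it alters a call on one of the 10 genes or on another gene named for its change. Counts of called markers below can be set beside all tested genes, of which 50.1% were higher and 4.82% lower in KO, and 20.9% and 18.7% after rescaling. Of the markers fixed for other cell types, 6 of 6 macrophage genes were higher in KO (Adgre1, Clec4f, Cd68, Csf1r, Marco and Vsig4), with a summed level of 47.25 to 156.3 TPM in WT and 214.3 to 426.1 TPM in KO. The summed level of 8 cholangiocyte markers was 37.76 to 68.38 TPM in WT and 272.5 to 741.8 TPM in KO, nearly all of it Spp1, with a mean of 33.84 TPM in WT and 492.0 TPM in KO. Of the 6 cholangiocyte markers tested, 4 were higher (Spp1, Cldn7 and Sox9 among them), Epcam was lower (-0.35, limma adjusted p = 0.0312) and Krt19 was not called (-0.12, limma adjusted p = 0.707), while Krt7 and Cftr were below the level for testing, and after rescaling 3 were higher and 1 lower. The 7 markers of stellate cells and myofibroblasts summed to 55.11 to 152.9 TPM in WT and 139.3 to 334.3 TPM in KO, with 5 of 7 higher by the test, and 3 higher and 1 lower after rescaling. Endothelial markers were 1 higher and 1 lower of 5 tested (summed 40.45 to 64.43 TPM in WT and 26.09 to 103.5 TPM in KO), lymphocyte markers 1 higher and 0 lower of 4 (2.639 to 7.723 and 6.561 to 14.15 TPM) and neutrophil markers 2 higher and 0 lower of 3 (0 to 18.36 and 8.846 to 41.48 TPM). After rescaling these were 0 and 1, 1 and 0, and 0 and 0, where S100a8 alone of the neutrophil markers had an unadjusted limma p under 0.05. Hepatocyte markers were present at a high level in every liver, with 11 genes summing to 99000 to 131800 TPM in WT and 69510 to 94550 TPM in KO, and 4 of 11 lower in KO by the test (Fabp1, Serpina1c, Ttr and Hpd), or 6 of 11 after rescaling, with Alb (-0.74) and Asgr1 (-0.55) added. In whole liver, fewer hepatocytes and less RNA per hepatocyte cannot be told apart, and the part of these shifts in the results on the sulfotransferases was not tested.

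Sult2a8, a hepatic sulfotransferase of bile acids, had the highest level of the 10 genes in WT males and was nearly lost in KO livers of both sexes. It lies on the minus strand at chr7:14410686-14446769 (GRCm38), in the cluster of Sult2a genes that also holds Sult2a7 at chr7:14465051-14494230. Its level was 429.9, 422.9 and 671.2 TPM in WT males and 338.5, 394.0 and 513.4 TPM in WT females. In KO males it was 2.219, 1.117 and 1.411 TPM, and in KO females 1.751, 0.8888 and 0.6978 TPM. All 6 WT livers were far above all 6 KO livers, and the ratio of the WT mean to the KO mean was 342.7. The difference was -7.62 (SE 0.169, n = 6 against 6, limma adjusted p = 4.47e-12). Taken apart by sex it was -7.61 (males) and -7.63 (females). The genotype effect of males minus that of females was 0.02 with a 95% interval of -0.73 to 0.78 (limma adjusted p = 0.989), so no difference between the sexes was detected within that interval. WT males and females also did not differ by the test (0.28, 95% interval -0.26 to 0.81, limma adjusted p = 0.486). The WT values stand for 9370 to 23537 sequenced fragments and the KO values for 20 to 56.

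Sult5a1, a little studied member of the family, showed the same order of genotypes at a lower level. The gene is on the minus strand at chr8:123140192-123158315. WT males had 4.471, 6.355 and 12.02 TPM and WT females 17.44, 14.40 and 26.51 TPM. KO males had 0, 0.08163 and 0.2041 TPM and KO females 0.08843, 0 and 0.04759 TPM, which is 0 to 7 fragments per library. The lowest WT liver stood above the highest KO liver, with a difference of -3.57 (SE 0.270, limma adjusted p = 2.37e-07). Adding 1 TPM before the logarithm compresses changes that end near 0, so this value understates the fold.

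Sult1b1, which sulfates iodothyronines and small phenols, was lower in KO by a smaller factor. It lies at chr5:87513339-87538195 on the minus strand, next to Sult1d1. The levels were 14.66, 10.76 and 16.46 TPM in WT males, 22.57, 18.93 and 20.41 TPM in WT females, 6.351, 9.593 and 4.664 TPM in KO males and 7.888, 7.313 and 8.152 TPM in KO females. No KO liver reached the lowest WT liver, although KO male replicate 2 came close to it. The WT mean was 2.361 times the KO mean, and the difference was -1.13 (SE 0.155, limma adjusted p = 4.93e-05). The males alone gave -0.96 and the females alone -1.30. For all of Sult2a8, Sult5a1 and Sult1b1 the difference between genotypes passed the threshold over both sexes and in each sex in all 12 fits that left out 1 library. Together with Sult2a7 they were the 4 of 10 genes with all 6 KO livers below all 6 WT livers, a pattern found in 1.88% of the 12278 genes tested.

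**Figure D1:**
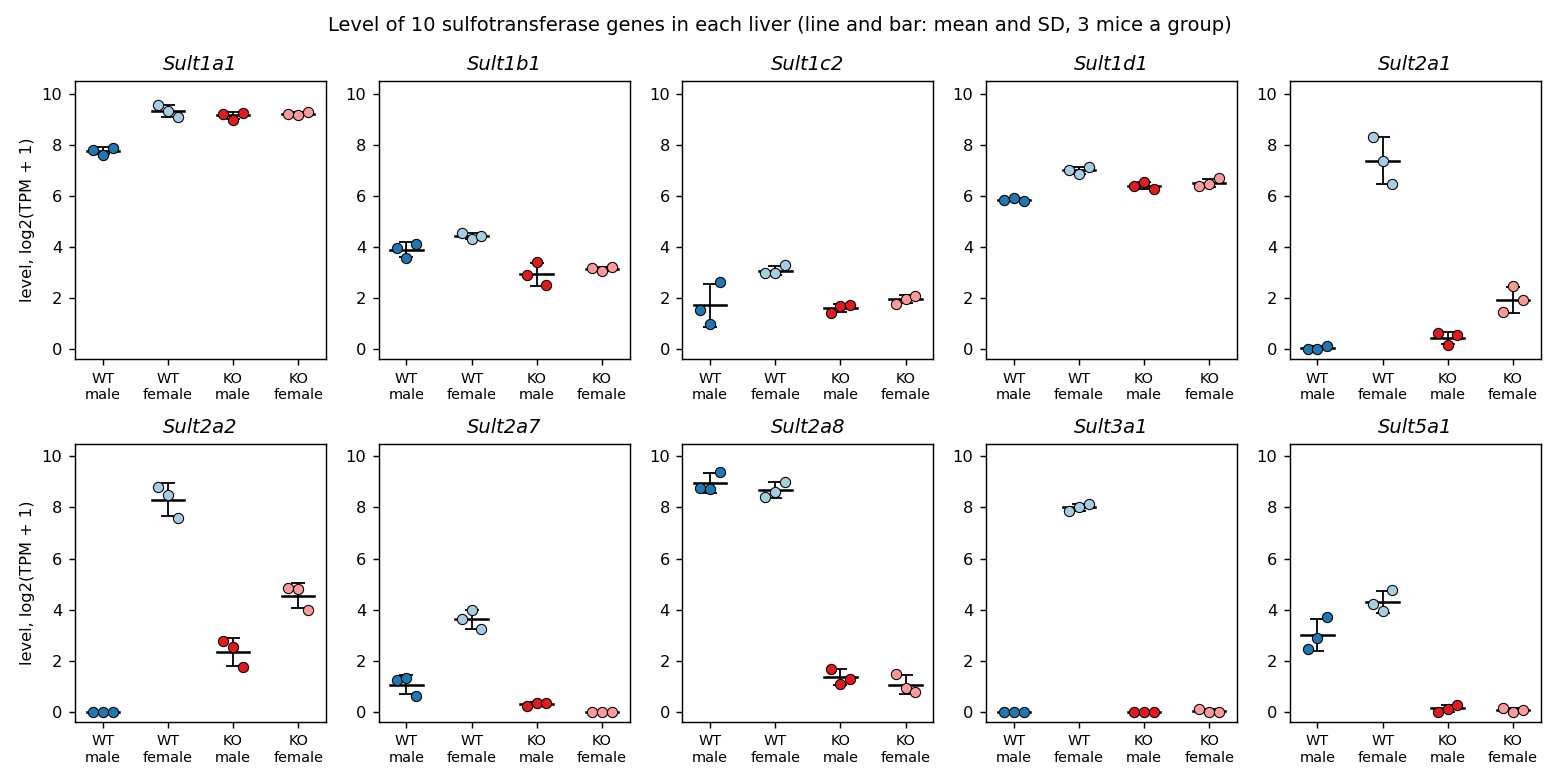
Level of each of the 10 sulfotransferase genes in every liver, as log2(TPM + 1), with 1 point per animal in 4 groups of 3. A short line and a bar give each group's mean and SD of the log2 values. Sult2a8 and Sult5a1 are low in all 6 KO livers, while Sult2a1, Sult2a2 and Sult3a1 are high in the 3 WT females alone.

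Sult3a1, which sulfates amines, was a gene of WT female liver in these data. It lies on the plus strand at chr10:33857721-33879532. The 3 WT females had 234.0, 258.5 and 279.8 TPM. All 3 WT males and all 3 KO males were at 0, and KO females were at 0.07527, 0 and 0 TPM, a single fragment in 3 libraries. A count of 0 fragments allows up to 3, which is 0.1986 to 0.2366 TPM in WT males and 0.276 to 0.2978 TPM in KO males, so WT females were at least 1090-fold higher than WT males and at least 865-fold higher than KO males. These limits cover counting error only. The difference between KO and WT females was -7.98 (SE 0.135, limma adjusted p = 9.94e-13), and its SE draws on a spread shared with the 2 groups in which every value is 0. Its neighbour Sult3a2, a near relative named here for comparison, was at 18.25, 23.33 and 22.38 TPM in WT females, at 0.1234 TPM in KO male replicate 3 and at 0 in the 8 other livers. Over the 12 livers the 2 genes had a Pearson r of 0.999 on the log2 scale, which rests on the WT females against the rest, and 6.15% of the 50-base windows of Sult3a1 transcripts also occur in Sult3a2 transcripts.

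Sult2a1 and Sult2a2, hydroxysteroid sulfotransferases that lie side by side on chromosome 7, were likewise high in WT females. Sult2a1 (chr7:13796246-13837409, minus strand) was at 313.6, 162.3 and 87.11 TPM in WT females and at 0, 0 and 0.07504 TPM in WT males. KO females had 1.706, 4.474 and 2.754 TPM and KO males 0.5213, 0.105 and 0.45 TPM. Every KO female was thus far below every WT female, and the mean was 63.03 times higher in WT females (difference -5.44, SE 0.373, limma adjusted p = 4.14e-07). In males the difference of 0.39 did not pass the test (limma adjusted p = 0.395), although it did with a pseudocount of 0.1 TPM in place of 1 (1.77, limma adjusted p = 0.0165). The 3 WT male libraries held 0, 0 and 1 fragments of Sult2a1 and the 3 KO male libraries 5, 1 and 4.

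Sult2a2 (chr7:13733505-13779636, plus strand) moved in opposite directions in the 2 sexes. Its level in WT females was 448.4, 363.4 and 189.5 TPM, and in KO females 27.60, 26.87 and 14.91 TPM, a mean 14.43 times lower (difference -3.75, SE 0.336, limma adjusted p = 4.69e-06). WT males were all at 0, and KO males were at 5.885, 4.770 and 2.323 TPM, from 41, 33 and 15 fragments. The rise in males was 2.35 (SE 0.336, limma adjusted p = 1.65e-04), and KO males were at least 11.7-fold above the level that 0 fragments allow in WT males. The SE in both sexes draws on a spread shared with the WT males, in which every value is 0. KO males and KO females, absent any overlap, were closer to each other than the WT sexes were, with 0 TPM in WT males against a mean of 333.8 TPM in WT females and 4.326 TPM in KO males against 23.13 TPM in KO females. Over both sexes the opposite changes left a difference of -0.70 that did not pass the test (limma adjusted p = 0.509) and that turned to 0.78 with a pseudocount of 0.1. Reads cannot always be told apart between these genes: 62.14% of the 50-base windows of Sult2a2 transcripts also occur in transcripts of other genes, mostly Sult2a1 and Sult2a5, and 33.16% of those of Sult2a1. How such reads were counted is not given in the sources used here, so the split between Sult2a1 and Sult2a2 is uncertain.

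Sult2a7, on the minus strand beside Sult2a8, was higher in WT females than in WT males and lower in the KO livers of both sexes. WT males had 1.356, 1.466 and 0.539 TPM and WT females 11.31, 14.83 and 8.447 TPM. KO males had 0.1664, 0.2514 and 0.2693 TPM, from 2 or 3 fragments each, and the 3 KO females were all at 0. WT females were at least 47.4-fold above the level that 0 fragments allow in KO females. The difference was -3.62 in females (SE 0.215, limma adjusted p = 1.32e-07) and -0.76 in males (SE 0.215, limma adjusted p = 0.0130). The SE in both sexes draws on a spread shared with the KO females, in which every value is 0. The call in males was lost without WT male replicate 2, with -0.63 and a limma adjusted p of 0.0555. None of the 50-base windows of Sult2a7 transcripts occurred in another gene's transcripts.

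The promoters of Sult3a1 and Sult2a8 are shown because Sult3a1 was seen almost only in WT females and Sult2a8 changed the most in males. Each is the stretch of 250 bases before the annotated start from RefSeq (GRCm38.p6), read 5′ to 3′ on the gene's own strand, at chr10:33857472-33857721 (plus strand) for Sult3a1 and, for the 2 annotated starts of Sult2a8, at chr7:14446588-14446837 and chr7:14438552-14438801 (minus strand). Capitals mark letters that match a searched motif.
Sult3a1: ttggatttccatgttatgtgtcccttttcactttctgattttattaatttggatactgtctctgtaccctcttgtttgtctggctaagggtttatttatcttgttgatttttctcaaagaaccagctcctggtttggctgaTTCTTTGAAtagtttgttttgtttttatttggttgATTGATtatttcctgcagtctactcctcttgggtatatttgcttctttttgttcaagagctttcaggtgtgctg
Sult2a8, outer start: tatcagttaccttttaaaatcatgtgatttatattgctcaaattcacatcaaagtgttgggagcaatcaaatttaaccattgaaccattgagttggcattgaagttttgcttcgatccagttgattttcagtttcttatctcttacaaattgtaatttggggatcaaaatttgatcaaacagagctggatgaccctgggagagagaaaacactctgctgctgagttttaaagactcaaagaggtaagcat
Sult2a8, inner start: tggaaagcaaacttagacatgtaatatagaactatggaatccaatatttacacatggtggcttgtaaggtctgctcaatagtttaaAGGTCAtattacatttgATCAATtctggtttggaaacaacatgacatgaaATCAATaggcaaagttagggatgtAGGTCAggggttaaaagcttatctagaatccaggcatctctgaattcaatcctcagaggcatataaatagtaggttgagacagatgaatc
The Sult3a1 stretch holds the STAT5 pattern TTCNNNGAA as TTCTTTGAA at positions -109 to -101 and the HNF6 and CUX2 letters ATTGAT at -74 to -69, counted from -1 for the last base before the start. The inner Sult2a8 stretch holds the nuclear receptor half-site AGGTCA from -164 and from -90 and ATTGAT on the opposite strand, printed as ATCAAT, from -147 and from -114, while the outer stretch holds none of the 8 motifs. Over 32851 promoters of the same window, from 250 bases before to 50 after the start, 8.3% held the STAT5 pattern, 16.3% the half-site and 7.54% ATTGAT, so single matches are common. Promoters of 7 of the 10 genes were matched and searched on both strands for these patterns and for GTTAAT (an HNF1 half-site, 7.1% of promoters), CAAAGTCCA (HNF4, 0.475%), TTGCGCAA (C/EBP, 0.183%), GGAATG (TEAD, 14.7%) and the inverted repeat of the half-site without a spacer, found in 0 promoters. TEAD proteins are the DNA-binding partners of YAP1. In the window from 250 bases before to 50 after the start, the TEAD letters occurred in 3 of the 7 genes, all on the opposite strand: in Sult5a1 from -193, and after the start in Sult1a1 from 42 and at the second start of Sult1b1 from 32. The other matches were AGGTCA at the first start of Sult1b1, from -123 on the opposite strand and from 38. GTTAAT occurred in Sult1d1 from -79 and in Sult1a1 from -232, and CAAAGTCCA at the second start of Sult1b1 from 25. Such a match is a description of letters and not a site of binding.

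Sult1a1, the main phenol sulfotransferase of liver, differed from the rest in that the KO livers of both sexes were near the level of WT females. It lies at chr7:126672865-126676432 on the minus strand. WT males had 218.9, 195.4 and 236.1 TPM and WT females 747.3, 639.5 and 550.9 TPM. KO males had 595.3, 503.5 and 608.9 TPM and KO females 590.1, 575.5 and 617.5 TPM. KO males lay above all WT males, with a mean 2.625 times higher, and overlapped the WT and KO females. The rise in males was 1.39 (SE 0.144, limma adjusted p = 1.35e-05) and 0.81 after rescaling (limma adjusted p = 0.00175). In females the difference was -0.11 with a 95% interval of -0.42 to 0.20 (limma adjusted p = 0.600), while after rescaling it was -0.46 and passed the threshold (limma adjusted p = 0.0385). Over both sexes the difference of 0.64 (limma adjusted p = 0.0295) lost its call without any 1 of the 6 male libraries (0.52 to 0.59, limma adjusted p = 0.0590 to 0.0769) and after rescaling (0.17, limma adjusted p = 0.525).

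Sult1d1, which sulfates catecholamines such as dopamine, showed the 2 sexes converging on a level between those of WT males and WT females. It lies at chr5:87554645-87569027 on the minus strand. WT males had 55.99, 59.72 and 54.37 TPM, WT females 127.8, 114.7 and 139.9 TPM, KO males 83.33, 92.76 and 75.34 TPM and KO females 83.46, 86.36 and 102.9 TPM. All KO livers of both sexes lay above every WT male and below every WT female. KO males were 0.55 higher than WT males (SE 0.135, limma adjusted p = 0.00593) and KO females lower than WT females, with a difference of -0.48 (SE 0.135, limma adjusted p = 0.0146). The rise in males was -0.02 after rescaling (limma adjusted p = 0.951), while the fall in females was then -0.83 (limma adjusted p = 0.00386), so the direction in males depends on the scaling. The call in females was lost without WT female replicate 3 (-0.42, limma adjusted p = 0.0600) or KO female replicate 1 (-0.43, limma adjusted p = 0.0585). Over both sexes the difference was 0.03 (limma adjusted p = 0.878).

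Sult1c2, a phenol sulfotransferase of low level in liver (chr17:53829637-53846339, minus strand), was lower in KO females. WT males had 1.877, 0.971 and 5.141 TPM and WT females 6.777, 6.846 and 8.657 TPM. KO males had 1.671, 2.205 and 2.300 TPM and KO females 2.404, 2.922 and 3.247 TPM. The 3 WT females stood above every other liver, and WT male replicate 3 stood apart from the 2 other WT males. The fall in females was -1.13 (SE 0.314, limma adjusted p = 0.0146) and was not called without WT female replicate 3 (-1.02, limma adjusted p = 0.0537). In males the difference was -0.10 and turned to 0.35 without WT male replicate 3 (limma adjusted p = 0.184). Over both sexes the difference of -0.61 missed the threshold (limma adjusted p = 0.0575) and passed it after rescaling (-0.94, limma adjusted p = 0.00886), without WT male replicate 1 (-0.71, limma adjusted p = 0.0411) and without WT male replicate 2 (-0.83, limma adjusted p = 0.00401).

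Counted over the 10 genes, 6 were lower and 1 higher in KO over both sexes at a limma adjusted p under 0.05, beside 4.82% of all tested genes lower and 50.1% higher. After rescaling 7 were lower and 0 higher, beside 18.7% and 20.9%, and at an unadjusted p under 0.05 the rescaled limma fit had 8 lower and 0 higher. In females 9 of 10 were lower and 0 higher, beside 4.68% and 29.1% of all genes, and the counts were the same at an unadjusted p under 0.05 in limma. The same 9 had no overlap between genotypes, a pattern of 7.88% of genes. After rescaling all 10 were lower in females, beside 10.9%. Sult2a7 and Sult3a1 reached the level for testing only through the WT females, so their place in these counts of lower genes in females was close to fixed in advance. In males 4 were lower and 3 higher, beside 2.81% and 43.3%, and after rescaling 4 were lower and 2 higher, beside 10.2% and 13.9%. The median difference of the 10 genes was -3.69 in females and -0.05 in males, beside 0.27 and 0.44 over all genes tested. The members are not independent of each other, since several are neighbours or share sequence. The call of Sult2a1 over both sexes (-2.52, limma adjusted p = 0.0210) was lost without KO female replicate 1 (-2.09, limma adjusted p = 0.0514) or KO female replicate 3 (-2.19, limma adjusted p = 0.0504). Sult3a1 was lower over both sexes by a difference of -3.99 (limma adjusted p = 0.00763), all of it from the females.

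**Figure D2:**
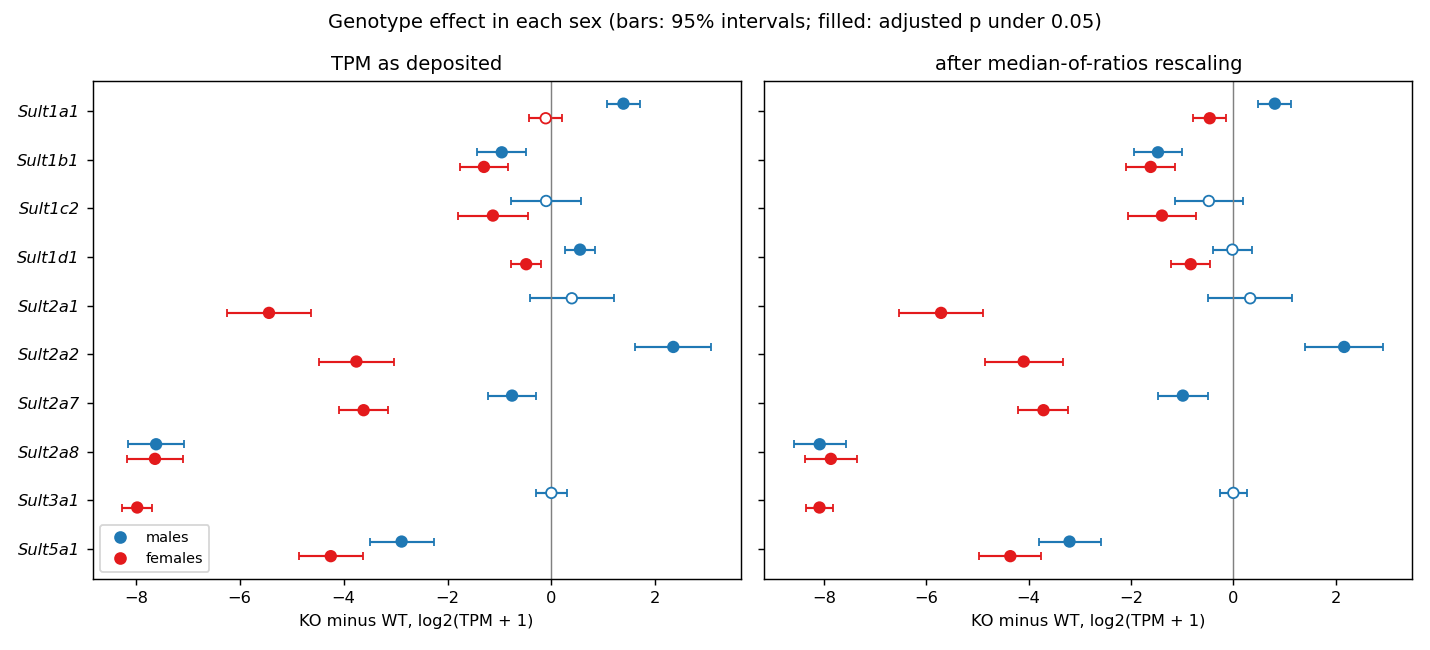
KO minus WT difference of each gene on the log2(TPM + 1) scale with its 95% interval, in males and in females, for TPM as deposited and after median-of-ratios rescaling, with filled points for an adjusted p under 0.05. Sult2a8 sits at -7.61 in males and -7.63 in females, Sult2a2 lies on opposite sides of 0 in males and females, and Sult3a1 is at 0 in males, where it was not seen.

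The study holds both sexes in both genotypes, so the sex difference of each gene could be set beside itself in WT and KO. In WT liver 8 of 10 genes were lower in males, beside 4.6% of all genes tested, and the count was also 8 after rescaling, beside 2.27%. The exceptions were Sult2a8 and Sult1b1, whose difference of -0.55 did not pass the test (limma adjusted p = 0.141). Sult2a7 and Sult3a1, among the 8, reached the level for testing only through the WT females, so their place in the count was close to fixed in advance. The male minus female difference was -8.30 for Sult2a2, -8.01 for Sult3a1, -7.34 for Sult2a1, -2.56 for Sult2a7, -1.56 for Sult1a1, -1.36 for Sult1c2, -1.30 for Sult5a1 and -1.15 for Sult1d1. That of Sult1c2 was lost without any 1 of WT male replicates 1 and 2 and the 3 WT females (-1.41 to -0.996, limma adjusted p = 0.0711 to 0.0978), and that of Sult5a1 without any 1 of WT male replicates 1 and 2 and WT female replicates 1 and 3 (-1.35 to -1.02, limma adjusted p = 0.0567 to 0.0818).

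In KO liver 1 of 10 genes differed between the sexes, beside 0.0244% of all genes lower in males and 0.0814% in either direction. After rescaling 0 of 10 were called, beside 0.0163% lower in males, and 2 had an unadjusted p under 0.05 in that limma fit. The gene was Sult2a2, lower in males by a difference of -2.20 (limma adjusted p = 0.0299), and its call was lost after rescaling (-2.14, limma adjusted p = 0.0510) and without any 1 of 7 libraries: WT male replicates 1 and 2, WT female replicate 2, KO male replicates 2 and 3 and KO female replicates 1 and 2 (-2.29 to -1.89, limma adjusted p = 0.0552 to 0.168). At an unadjusted p under 0.05 limma had 2 genes lower in males in KO, Sult2a1 and Sult2a2. The difference of Sult2a1 was -1.504 with a 95% interval of -2.31 to -0.70 (limma adjusted p = 0.600). All 3 KO males were below all 3 KO females for 3 of 10 genes (Sult1c2, Sult2a1 and Sult2a2), beside 5.09% of all genes, and above them for 1, Sult2a7 (0.1664 to 0.2693 TPM against 0), beside 4.41%. For Sult1a1 the sex difference in KO was -0.07 with an interval of -0.38 to 0.25, and for Sult1d1 it was -0.11 with an interval of -0.41 to 0.18, beside -1.56 and -1.15 in WT.

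Whether the genotype effect itself differed between the sexes was tested as an interaction, the effect in males minus that in females. It passed the threshold for 6 of 10 genes, all with the larger value in males, beside 0.586% of all genes in that direction. After rescaling 5 passed, beside 0.448%. The values were 7.98 for Sult3a1 (limma adjusted p = 7.76e-11), 6.10 for Sult2a2 (1.05e-05), 5.83 for Sult2a1 (3.88e-05), 2.86 for Sult2a7 (1.72e-04), 1.497 for Sult1a1 (0.00171) and 1.04 for Sult1d1 (0.0209). These 6 are also among the genes with a sex difference in WT, and the same 3 WT males and 3 WT females enter both values. Sult2a7 and Sult3a1 were tested only because of their level in WT females, which favours both values in this direction. Sult3a1 was at 0 in every male and Sult2a2 in every WT male, so neither could fall in males. For Sult3a1 the value is thus the difference in females with the sign turned. The interaction of Sult1d1 was not called after rescaling (0.81, limma adjusted p = 0.328), nor without any 1 of 7 libraries: WT male replicate 1, WT female replicates 1 and 3, KO male replicates 1 and 2 and KO female replicates 1 and 2 (0.96 to 1.04, limma adjusted p = 0.0557 to 0.0716). Without WT male replicate 3 the interactions of Sult5a1 (1.71, limma adjusted p = 0.0207) and Sult1c2 (1.48, limma adjusted p = 0.0220) passed as well. With all libraries they did not, at 1.36 (limma adjusted p = 0.249) and 1.03 (limma adjusted p = 0.527).

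**Figure D3:**
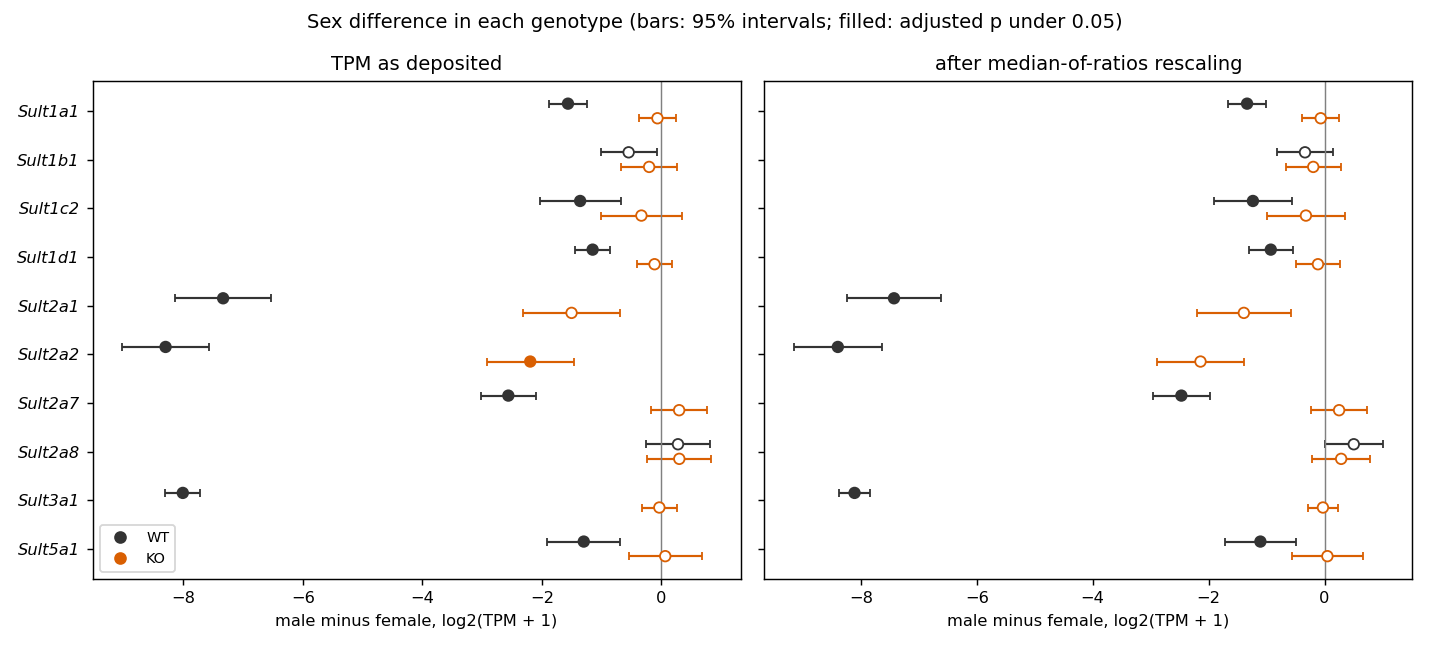
Male minus female difference of each gene on the log2(TPM + 1) scale with its 95% interval, in WT and in KO, for TPM as deposited and after rescaling, with filled points for an adjusted p under 0.05. WT values reach -8.30 for Sult2a2, while the KO values other than those of Sult2a1 and Sult2a2 run from -0.34 for Sult1c2 to 0.30 for Sult2a8 and Sult2a7.

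Summed over the 10 genes, sulfotransferase RNA was 806.9 ± 164.4 TPM in WT males, 2027 ± 224.2 in WT females, 668.5 ± 46.93 in KO males and 723.2 ± 23.97 in KO females (SD, n = 3 each). The 3 WT females were at 1825 to 2268 TPM and the 9 other livers at 614.3 to 995.9 TPM. In WT males Sult2a8 made up 62.38% ± 4.408 of the sum and Sult1a1 27.27% ± 3.261 (SD, n = 3). In WT females the sum was spread over Sult1a1 (31.77% ± 1.424), Sult2a8 (20.96% ± 6.678), Sult2a2 (16.15% ± 5.044), Sult3a1 (12.89% ± 2.51) and Sult2a1 (8.923% ± 4.575) (SD, n = 3). Sult1a1 alone held 85.02% ± 2.822 in KO males and 82.18% ± 0.4226 in KO females (SD, n = 3). The Sult2a genes and Sult3a1 together held 62.53% in WT males and 59.49% in WT females, but 0.9735% in KO males and 3.793% in KO females. In TPM the 4 Sult2a members summed to 509.1 ± 140.9 and 948.3 ± 157.2 in WT males and females and to 6.496 ± 2.18 and 27.22 ± 7.69 in KO males and females (SD, n = 3 each). No test was made on these sums.

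**Figure D4:**
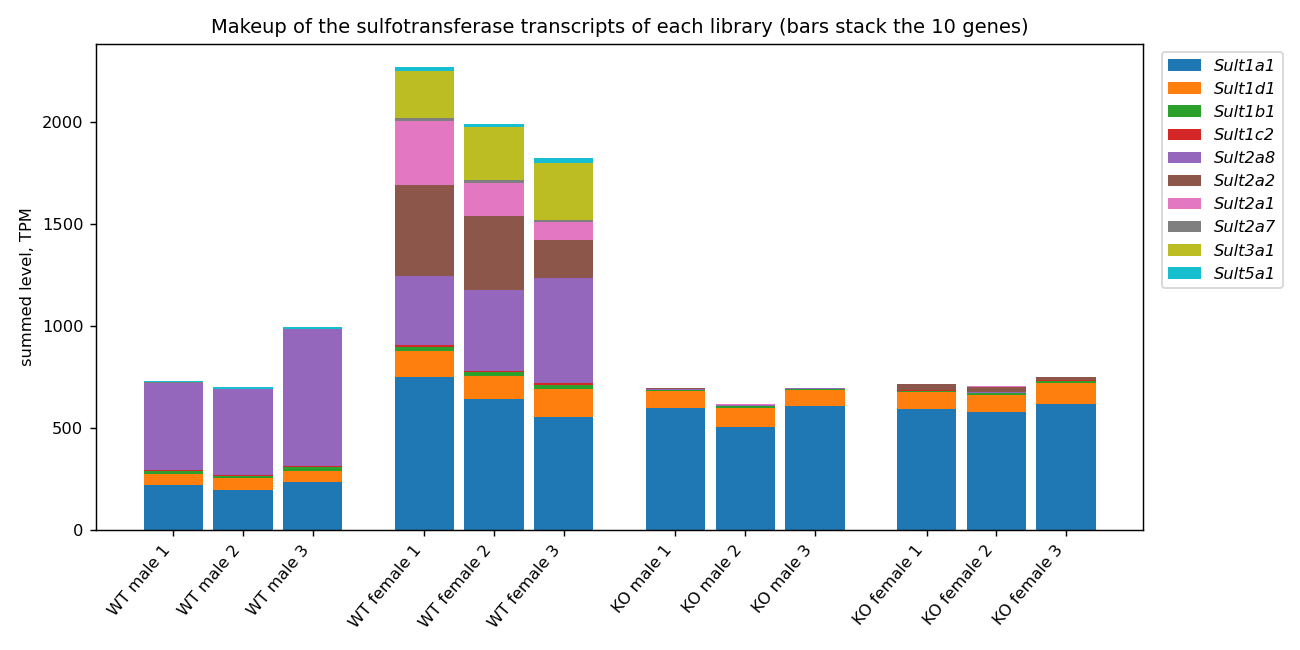
Summed TPM of the 10 genes in each of the 12 livers as stacked bars, with 1 colour per gene. WT males are mostly Sult2a8 and Sult1a1, WT females add Sult2a1, Sult2a2 and Sult3a1 to a sum of 1825 to 2268 TPM, and KO bars are mostly Sult1a1.

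The authors' deposited table also gives a KO against WT fold change and a false discovery rate for each gene, over both sexes. For Sult2a8 the authors' deposited table lists a fold change of -455.5, for Sult5a1 -156.8, for Sult2a7 -31.89 and for Sult1b1 -2.854, each with a false discovery rate of 0.00. For Sult3a1 it lists -17.66 in the authors' deposited table, with a rate of 0.02. For Sult2a2 and Sult2a1 the authors' deposited table lists higher levels in KO, with folds of 81.74 and 17.43 and rates of 0.00 and 0.01, whereas the TPM of the same table has every WT female above every KO liver for both genes. In the males of the same TPM every KO liver was above every WT liver for both genes, at means of 0.3588 against 0.025 TPM for Sult2a1 and 4.326 against 0 TPM for Sult2a2. The authors' deposited table gives rates of 0.24, 0.32 and 0.49 for Sult1a1, Sult1c2 and Sult1d1. How these folds were computed is not given in the sources used here.

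Of the other cytosolic sulfotransferases, 4 of 11 in the table reached the level for testing. Sult1e1, the estrogen sulfotransferase, rose in KO by 2.85 (SE 0.457, limma adjusted p = 1.75e-04). Its mean was 0.4477 TPM in WT males and 0.4265 in WT females, 20.78 in KO males (7.853 to 28.17) and 5.611 in KO females (1.471 to 11.69). No KO liver was below the highest WT liver. Sult3a2 fell by 2.21 (limma adjusted p = 0.00924), and Sult2a3 (-0.67, limma adjusted p = 0.0914) and Sult2a5 (-0.69, limma adjusted p = 0.110) did not pass over both sexes. Both were at 0 in all 6 males and fell in females, by 1.34 (limma adjusted p = 0.0168) and 1.38 (limma adjusted p = 0.0253). With Sult3a2, 3 of the 4 tested were thus lower in KO females, also after rescaling. These 3 reached the level for testing only through the WT females, so that count was close to fixed in advance. It cannot be read against the 4.68% and, after rescaling, 10.9% of all genes that were lower in KO females. The levels were low, at 0.06977 to 3.243 TPM of Sult2a3 and 1.298 to 8.476 TPM of Sult2a5 in WT females, and at most 0.08548 and 1.581 TPM in KO females. Of the 50-base windows of Sult2a2 transcripts, 31.94% also occur in Sult2a5 transcripts. Reads of Sult2a5 can therefore not always be told apart from those of the more abundant Sult2a2, and their part in the fall of Sult2a5 was not tested.

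Sulfation also needs its donor. Of 6 tested genes for synthesis, transport and recycling of PAPS, 3 were higher and 0 lower in KO, beside the 50.1% higher and 4.82% lower of all genes: Papss1, a PAPS synthase, by 0.59, Slc35b3, a Golgi PAPS transporter, by 0.48, and Impad1, a Golgi phosphatase of the spent cofactor, by 0.40. After rescaling 0 were higher, with 0.15, 0.10 and -0.04 for these 3, and Papss2, the other synthase, was lower (-0.74, against -0.28 as deposited). In females alone 0 were higher and 1 lower as deposited, Papss2 (-0.79, limma adjusted p = 0.0109), beside 29.1% and 4.68% of all genes. The median of the 6 genes was 0.35 and that of all genes also 0.35. Of 12 tested genes of sulfate uptake and supply, 4 were higher (Cth by 0.92, Got1 by 0.66, Slc26a2 by 0.43 and Cbs by 0.37) and 2 lower (Tst by a difference of -0.63 and Mpst by one of -0.55), beside 50.1% higher and 4.82% lower of all genes. After rescaling 0 were higher and 5 lower, beside 20.9% and 18.7%. The 4 that were higher then missed the threshold, with 0.46 for Cth, 0.20 for Got1, 0.15 for Slc26a2 and -0.10 for Cbs. Cth makes cysteine, the source of hepatic sulfate, while Tst and Mpst are sulfurtransferases of mitochondria and cytosol.

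Of 10 tested genes for sulfatases and their activating factors, which remove sulfate groups, 8 were higher and 0 lower in KO, beside the 50.1% of all genes that were higher, with a median of 0.57 beside 0.35 over all genes. The largest changes were those of Galns (2.18, limma adjusted p = 7.14e-09), Arsa (1.61, limma adjusted p = 3.22e-05) and Arsg (0.92, limma adjusted p = 0.00175). These are lysosomal enzymes that act on glycosaminoglycans and sulfatides, not on bile acid sulfates. After rescaling 3 were higher, beside 20.9% of all genes, with Galns at 1.75, Arsa at 1.17 and Arsg at 0.50, which then missed the threshold. The summed macrophage markers, from a cell type rich in lysosomes, moved in the same direction, and their part in this count was not tested.

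Among 18 tested nuclear receptors and hepatocyte factors known to act on sulfotransferase genes, 5 were higher and 1 lower in KO, beside 50.1% and 4.82% of all genes, and after rescaling 1 was higher and 7 lower, beside 20.9% and 18.7%. In females alone 2 were higher and 5 lower as deposited, beside 29.1% and 4.68%. Ppara, the receptor for fatty acids and a regulator of their oxidation, fell by 1.27 (limma adjusted p = 2.57e-04) and by 1.71 after rescaling. Ahr, the aryl hydrocarbon receptor, was higher by 0.99, Nfe2l2, the factor of the oxidative stress response, by 0.94 and Nr1i2, the xenobiotic receptor PXR, by 0.65. After rescaling these were 0.55, 0.48 and 0.19, and only Ahr of the 3 passed the threshold. Nr1h4, the bile acid receptor FXR, was at -0.34 (limma adjusted p = 0.158) and at -0.80 after rescaling, where it passed (limma adjusted p = 0.00194). Nr1i3, the receptor CAR, was at -1.04 over both sexes (limma adjusted p = 0.0527) and passed after rescaling (-1.496, limma adjusted p = 0.0103). Its level was 102.3 to 240.1 TPM in WT females, 22.6 to 101.0 TPM in WT males, 33.54 to 50.97 TPM in KO males and 30.59 to 55.16 TPM in KO females, with a fall in females of -2.07 (limma adjusted p = 0.00433).

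**Figure D5:**
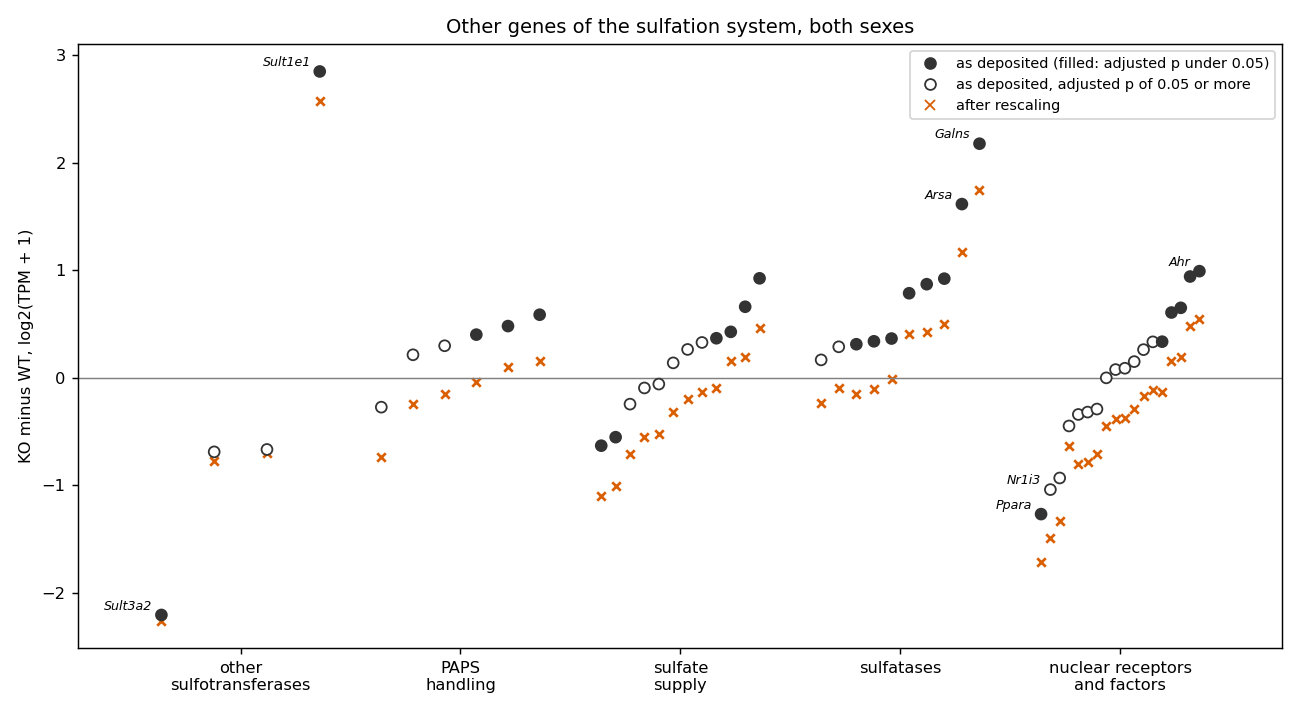
KO minus WT difference over both sexes on the log2(TPM + 1) scale for each tested gene of the other sulfotransferases, PAPS handling, sulfate supply, sulfatases, and nuclear receptors and factors, in order of size within each list. Circles are TPM as deposited, filled for an adjusted p under 0.05, and crosses the rescaled values. Sult1e1 and Galns are at the top and Sult3a2 at the bottom.

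The genes whose levels followed each member most closely over the 12 livers are given as a description, by Pearson r of log2(TPM + 1), since all points share the contrast of 4 groups. Sult2a8 was followed by Mup3, a major urinary protein, at 0.987, Cyp2f2, a cytochrome P450 of periportal hepatocytes, at 0.985, and Yap1 itself at 0.984. Sult5a1 was followed by Irx1 (0.983), Slc10a1, the sodium-dependent bile acid importer NTCP (0.982), and Dio1, a thyroid hormone deiodinase (0.975). Sult2a1 was followed by Cyp2b13 (0.991), a female-specific cytochrome P450, and Sult3a1, beside Sult3a2, by Cyp3a44 (0.999) and Cyp3a41b (0.998), also female-specific. Sult2a2 had Cyp2a22 (0.972) and the transporters Slc22a26 (0.965) and Slc22a27 (0.963), and the first of these transporters also led for Sult1d1 (0.961). Sult2a7 had Ugt1a5 (0.972), Sult1b1 had Aspdh (0.970) and Prodh2 (0.968), Sult1c2 had Slc2a9 (0.963), and Sult1a1 had the monocarboxylate transporters Slc16a5 (0.978) and Slc16a7 (0.973). Among the members, Sult2a8 and Sult5a1 had an r of 0.952, Sult2a1 and Sult3a1 0.958, and Sult2a8 and Sult1a1 -0.51.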

How the data were processed

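RNA from 12 mouse livers was sequenced. Each sample has its own code in the labels and was taken as 1 animal. The authors deposited TPM values per gene, each library summing to 1000000, beside their own KO against WT table of signed fold change, log2 fold change and false discovery rate p-value. GRCm38 and edgeR are named in the submitters' processing notes without a role, and the aligner, counter and annotation are not given in the sources used here. From the deposited TPM, log2(TPM + 1) was tested with limma 3.58.1 in R 4.3.3 (moderated, two-sided, with a mean-dependent prior) over 12278 genes with a mean of at least 0.5 TPM, and p-values were adjusted by Benjamini-Hochberg over all of them, with a threshold of 0.05. The test over both sexes had sex as a covariate, and the others came from 1 model of 4 group means. TPM values are not counts, so no count model was run, but the values of all 10 members were whole multiples of a fixed step within 0.05, which gave fragments per library. One fragment of Sult2a8 was worth 0.0265 to 0.0428 TPM. The total depth of the libraries was not computed here, and fragments without molecular identifiers are not independent molecules. Alternatives were median-of-ratios rescaling, pseudocount and filter changes, other covariates and leaving out each library. Replicate numbers follow accession order. The codes in the labels carry lower numbers for WT female replicate 3 and KO female replicate 1 than for the rest, and WT male replicate 2 has a second code number apart from the others. What these numbers stand for is not stated, and a covariate for the 2 low-numbered females was one alternative. The fit was tested on simulated data. Transcript windows of 50 bases were compared within GENCODE M21, and coordinates are GRCm38. Genes named are all 10 members, the other sulfotransferases tested, up to 3 genes in each direction with the largest called change in each other list, the 3 genes most correlated with each member (some left out), and further genes of small counts, chosen after their values were seen. The members and lists were chosen with earlier results of these data known.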

Additional observations from a re-analysis of the deposited data

Results flagged for a closer look

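For 6 genes the effect of the KO genotype differed between males and females by the interaction test in limma, given as the effect in males minus that in females on the log2(TPM + 1) scale. The values were 7.975 for Sult3a1, 6.103 for Sult2a2, 5.831 for Sult2a1, 2.859 for Sult2a7, 1.497 for Sult1a1 and 1.036 for Sult1d1. The first 4 stayed past the threshold in all 12 fits that left out 1 library, as did that of Sult1a1, while that of Sult1d1 was lost in 7 of the 12. Sult3a1 was not seen in any male and Sult2a2 was not seen in any WT male, so neither could fall in males. The value of Sult3a1 is thus the difference in females with the sign turned, and it tests no response in males. WT male libraries held at most 1 fragment of Sult2a1, which left it almost no room to fall. Sult2a7 and Sult3a1 were tested only because of their level in WT females, which favours values in this direction. Groups of 3 livers are too small for the check on single outlying samples.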

How the results depend on the processing

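No paired analysis was possible because the replicate numbers follow accession order and link no animals across groups. Of 1238 values for single genes under the alternatives, 1149 kept direction and call, 58 lost the call, 9 gained it and 22 changed sign. The counts among the 10 sulfotransferases stayed within 1.5 times the reported ones, except for the sex difference in KO, reported as 1. That count was 0 with no filter on low values, 0 after rescaling, 0 with only the KO livers in the fit, 2 with a covariate for the 2 low-numbered females (WT female replicate 3 and KO female replicate 1) and 0 with both left out, an alternative chosen after seeing the data. It ran from 0 to 1 when single libraries were left out. Counts of the other gene lists moved more under rescaling over both sexes: sulfatases from 8 higher to 3, PAPS genes from 3 higher and 0 lower to 0 and 1, sulfate supply from 4 higher and 2 lower to 0 and 5, and nuclear receptors and factors from 5 higher and 1 lower to 1 and 7. Values that changed sign are given next, and their cause was not tested. With a pseudocount of 0.1 Sult2a2 over both sexes was 0.78. Rescaling gave -0.43 for Sult1d1 over both sexes, -0.019 for Sult1d1 in males and -0.22 for the interaction of Sult2a8. Without the 20 most abundant genes Sult1d1 over both sexes was -0.042. With the covariate for low-numbered females Sult3a1 between the sexes in KO was 0.013. Leaving out single libraries gave -0.057 to 0.12 for Sult1d1 over both sexes, -0.46 to 0.35 for Sult1c2 in males, -0.22 to 0.0014 for Sult1a1 in females and -0.15 to 0.24 for the interaction of Sult2a8. For the sex difference in KO the ranges were -0.0065 to 0.13 for Sult5a1, -0.44 to 0.0077 for Sult1b1 and -0.12 to 0.019 for Sult1a1. None of these values passed the threshold. Precision is limited by 3 animals per group and, for Sult2a1, Sult2a7, Sult3a1 and Sult5a1 in the low groups, by 0 to 44 fragments per library.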
